A study of Mus musculus with 91 samples.

Results

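The monocyte effector genes described here are 9 genes of monocytes and their progenitors, chosen by name: Ly86, Ly6c2, Ms4a6c, Tmem176a, Tmem176b, F13a1, Ctss, Mpeg1 and Lgals3. All 9 were found among the 23956 genes of the deposited table, which gives expression in 91 single bone marrow cells. The cells came from C57BL/6 mice of the genotype Gfi1-R412X/- Irf8+/-, so Gfi1 carries R412X on one allele and is written as minus on the other, and Irf8 is heterozygous. Sorting kept CD117+ marrow cells without lineage markers or Sca-1 that carried CD34 and much CD16/32, and 46 cells were labelled GMP (granulocyte-monocyte progenitor) and 45 CD11b+ GMP-P. Both populations carry both mutations, and no cells without them were analysed here. The labels give neither the age nor the number of the mice, so a population counts as 1 sample and differences between the populations carry no test.

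Granulocyte-monocyte progenitors give rise to neutrophils and to monocytes. IRF8 is a transcription factor that, with PU.1, activates genes of monocytes and dendritic cells and restrains the neutrophil programme, while GFI1 is a repressor needed for neutrophil development. Monocyte effector genes encode the surface proteins, lysosomal enzymes and secreted or cytosolic proteins that a maturing monocyte uses in pathogen sensing, antigen processing and tissue repair, and their transcripts can appear in progenitors that still express neutrophil granule genes.

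All levels are log2(TPM + 1), where TPM is a transcript abundance that corrects for transcript length and sums to the same total in every cell. A gene was counted as present in a cell at 10 TPM or more. The granule gene Camp was listed above 0 in all 46 GMP cells, at a median of 9.42 TPM. The number of genes above 0 had a median of 5461 in GMP (2796 to 6383), against 4147 in CD11b+ GMP-P (2435 to 6161). Of the genes used in the sort, Itgam, which encodes CD11b, was present in 3 of 46 GMP and 24 of 45 CD11b+ GMP-P cells, whereas Kit, which encodes CD117, was present in 26 and 3. The summed level of 9 dendritic markers had medians of 0.46 TPM in GMP and 0.1 TPM in CD11b+ GMP-P, with single cells from 0 to 280 TPM. It reached 10 TPM in 10 GMP and 4 CD11b+ GMP-P cells. Batf3, H2-Aa and Cd209a were at 0 in every cell. H2-Ab1 was present in 9 GMP and 4 CD11b+ GMP-P cells, Flt3 in 2 and 0, and Zbtb46 in 1 and 0. Of 7 macrophage markers, C1qa, C1qb, C1qc and Cd5l were listed at 0 in every cell. Slc40a1 was present in 11 GMP and 16 CD11b+ GMP-P cells, Vcam1 in 5 and 10, and Emr1 in 5 and 0. The summed level of the 7 ran from 0 to 1675 TPM in GMP (median 0.145) and from 0 to 619 TPM in CD11b+ GMP-P (median 11.1), reached 10 TPM in 15 and 23 cells, and its part in the results was not tested. The summed level of 5 basophil and mast cell markers reached 10 TPM in 21 GMP and 5 CD11b+ GMP-P cells. In 6 GMP cells it reached 1000 TPM, and only these 6 are called cells with basophil and mast cell markers, or marked cells, below. Several results, but not all, are given with and without these 6. SDs are over cells, which are not biological replicates.

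Among the members, Ly6c2, which encodes the surface glycoprotein that marks classical monocytes, was by far the most abundant in both populations. In GMP it ranged from 2.50 to 14.35 with a median of 12.93, and in CD11b+ GMP-P from 1.97 to 14.41 with a median of 11.78. The transcript was present in 42 of 46 GMP and 44 of 45 CD11b+ GMP-P cells, so the populations overlapped almost completely. The means of 11.60 ± 3.11 (SD, n = 46 cells) and 11.52 ± 2.19 (n = 45) differed by -0.09, CD11b+ GMP-P minus GMP. The sign turned with the scaling, to +1.16 with median of ratios. It was +0.42 when the scaling left out the 50 genes of highest mean TPM over all cells. Without the 6 GMP cells with basophil and mast cell markers the difference was -1.08, so no direction is given for Ly6c2. Its near copy Ly6c1 was lower, at 5.39 ± 2.27 and 5.22 ± 1.91. In GENCODE transcripts, 48.2% of the 31-base stretches of Ly6c2 also occur in Ly6c1 and 7.18% in Ly6a, so reads may have been divided between these genes.

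The other surface and membrane members were lower in CD11b+ GMP-P. Ms4a6c, a tetraspan protein of the MS4A family, ranged from 0 to 9.31 with a median of 6.33 in GMP and from 0 to 10.59 with a median of 0.55 in CD11b+ GMP-P. It was present in 36 GMP and 15 CD11b+ GMP-P cells, and the means of 5.83 ± 2.98 and 2.70 ± 3.60 differed by -3.12. Fewer CD11b+ GMP-P cells held the transcript, but 2 of them reached 1000 TPM, which no GMP cell did. With the log2 ratio of mean TPM, which follows the highest cells, the difference was -0.55, and differences under 1 were not called.

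Tmem176b and Tmem176a, neighbouring genes for related tetraspan proteins of intracellular membranes, were each present in few CD11b+ GMP-P cells. Tmem176b ranged from 0 to 9.97 in GMP with a median of 6.59, and from 0 to 9.36 in CD11b+ GMP-P with a median of 0. It was present in 33 cells of GMP (71.7%, 95% Clopper-Pearson interval 56.5 to 84), against 7 cells of CD11b+ GMP-P (15.6%, 6.49 to 29.5), and its means of 5.59 ± 3.5 and 1.04 ± 2.49 differed by -4.55. Tmem176a ranged from 0 to 9.51 in GMP with a median of 2.25, and from 0 to 8.41 in CD11b+ GMP-P with a median of 0. It was present in 21 and 4 cells, and its means of 3.52 ± 3.61 and 0.59 ± 1.82 differed by -2.94, so in both genes the ranges overlapped while the share of cells differed. Both were present together in 18 GMP cells, Tmem176b alone in 15 and Tmem176a alone in 3. Their exons share 81 bases in GENCODE and the libraries do not mark strand, so a small part of their reads cannot be separated.

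Ly86, also called MD-1, encodes the secreted partner of the Toll-like receptor relative CD180. It ranged from 0 to 10.87 in GMP and from 0 to 9.16 in CD11b+ GMP-P, with medians of 0, and 26 GMP cells were listed at 0. It was present in 16 of the 46 cells in GMP but 5 of the 45 in CD11b+ GMP-P, and its means of 3.13 ± 4.13 and 0.84 ± 2.25 differed by -2.29. Cd180 itself was listed at 0 in every cell.

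The enzymes and other soluble effectors went different ways. F13a1, the A subunit of the transglutaminase coagulation factor XIII, ranged from 0 to 11.26 in GMP with a median of 6.48, and from 0 to 8.59 in CD11b+ GMP-P with a median of 0.16. It was present in 29 and 10 cells, its means of 5.32 ± 3.91 and 1.48 ± 2.71 differed by -3.83, and no CD11b+ GMP-P cell reached the level of the highest GMP cell. Ctss, cathepsin S, is the lysosomal cysteine protease that trims the class II invariant chain. It was present in 26 GMP and 11 CD11b+ GMP-P cells, with medians of 6.49 and 0 and highest cells of 10.66 and 10.40. Its means of 4.55 ± 3.99 and 1.81 ± 2.99 differed by -2.74. Cd74, which encodes the invariant chain, was listed at 0 in every cell.

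Mpeg1, which encodes the pore-forming protein perforin-2, was rare in both populations, present in 2 GMP and 5 CD11b+ GMP-P cells. Both medians were 0 and the highest cells stood at 256 and 354 TPM. Its means were 0.77 ± 1.61 and 0.92 ± 2.19, and the 5 highest cells held 94.2% of its total TPM in GMP, against 98.2% in CD11b+ GMP-P. Lgals3, galectin-3, a lectin abundant in monocytes and macrophages, went the opposite way from most members. It ranged from 0 to 8.96 in GMP with a median of 0, and from 0 to 10.32 in CD11b+ GMP-P with a median of 5.64. The transcript was found in 5 of 46 cells in GMP (10.9%, 3.62 to 23.6), against 30 of 45 in CD11b+ GMP-P (66.7%, 51 to 80), and its means of 0.96 ± 2.20 and 4.80 ± 3.62 differed by +3.84.

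**Figure D1:**
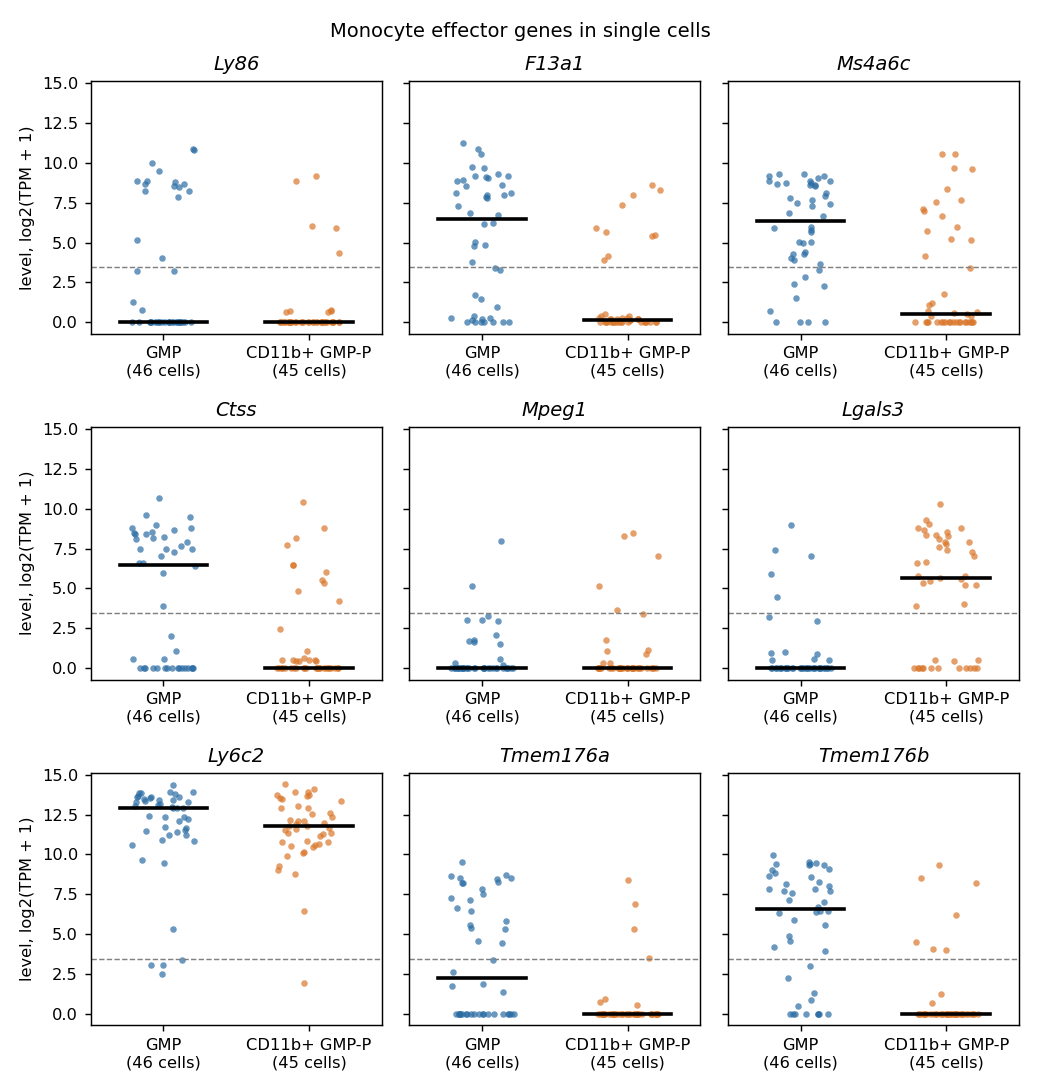
The y axis gives the level of each of the 9 members as log2(TPM + 1), 1 point per cell (blue, 46 GMP; orange, 45 CD11b+ GMP-P). Medians are black bars, 10 TPM is a dashed line, and points are spread sideways only to separate them. Most members fall into cells with the transcript and cells near 0, and Lgals3 is the member with the higher median in CD11b+ GMP-P, 5.64 against 0.

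Of the 9 members, 6 were lower in CD11b+ GMP-P by 1 or more, 1 was higher and 2 differed by less than 1. Among the 10030 genes detected in 10% or more of either population's cells, 29.9% were lower and 2.45% higher by this measure. The median difference was -2.74 for the members and -0.50 for those genes, and scaling by median of ratios brought the latter to -0.21 and the former to -2.22. CD11b+ GMP-P cells also had fewer genes above 0, and among cells in the range of genes detected that the populations share (26 GMP and 21 CD11b+ GMP-P cells) the members had a median of -1.85 and those genes -0.20. The share of lower genes depended on the filter. Over all cells, among the 5133 genes detected in 50% or more of either population's cells, 51.8% were lower and 3.70% higher, with a median of -1.05. In order of mean level, GMP had Ly6c2, Ms4a6c, Tmem176b, F13a1, Ctss, Tmem176a, Ly86, Lgals3 and Mpeg1, and only the step from Ly6c2 to Ms4a6c, 11.60 to 5.83, exceeded the SDs of both neighbours. In CD11b+ GMP-P the order was Ly6c2, Lgals3, Ms4a6c, Ctss, F13a1, Tmem176b, Mpeg1, Ly86 and Tmem176a, with a step of that kind only from Ly6c2 to Lgals3, 11.52 to 4.80.

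Within GMP, 5 members correlated with Irf8 across cells. Spearman's rho with Irf8 was 0.65 for Ly6c2, 0.64 for F13a1, 0.63 for Ly86, 0.57 for Ms4a6c and 0.49 for Ctss (n = 46 cells that count as 1 sample, given as a description). Over the 8205 genes detected in 20% or more of GMP cells the median rho was 0.07, and 1.85% reached 0.4, the size used to call a correlation. Ordered by rho, Ly6c2, F13a1 and Ly86 stood in places 2, 3 and 4 of these genes, Ms4a6c in place 9 and Ctss in place 37. The members were chosen with earlier results of these data known, so these places are a description and no test. Given the number of genes detected in each cell, rho was 0.63 for Ly86, 0.63 for F13a1 and 0.61 for Ly6c2, and these took places 1, 2 and 3, beside 1.18% of genes at 0.4 or more.

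The remaining members followed Irf8 weakly in GMP. Lgals3 had a rho of 0.31, Tmem176b 0.27, Tmem176a 0.22 and Mpeg1 0.18, none of which reached 0.4. Lgals3 was present only in cells that also held Irf8, 5 of 35, and in none of the 11 GMP cells without Irf8, and its rho was 0.41 without the 6 cells with basophil and mast cell markers. In those 6 cells Ly86, Ctss, Mpeg1 and Lgals3 were all absent at 10 TPM, and Irf8 was present in 2. Without them rho was 0.66 for Ly86, 0.69 for F13a1, 0.53 for Ms4a6c, 0.43 for Ctss and 0.59 for Ly6c2.

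Counted by cell, Ly86 was present in 15 of the 35 GMP cells with Irf8 and 1 of the 11 without. F13a1 was present in 26 of 35 and 3 of 11, Ctss in 23 and 3, and Ms4a6c in 31 and 5. Most cells with these transcripts thus held Irf8, but 20 cells with Irf8 lacked Ly86. These counts include the 6 cells with basophil and mast cell markers, of which 2 held Irf8. Some of the 11 cells without Irf8 are therefore marked cells, and the counts were not repeated without them. Irf8 itself ranged from 0 to 9.90 in GMP with a median of 7.87, and among the 41 cells with Irf8 above 0 rho was 0.59 for Ly86, 0.57 for Ly6c2, 0.52 for F13a1, 0.47 for Ms4a6c and 0.46 for Ctss.

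**Figure D2:**
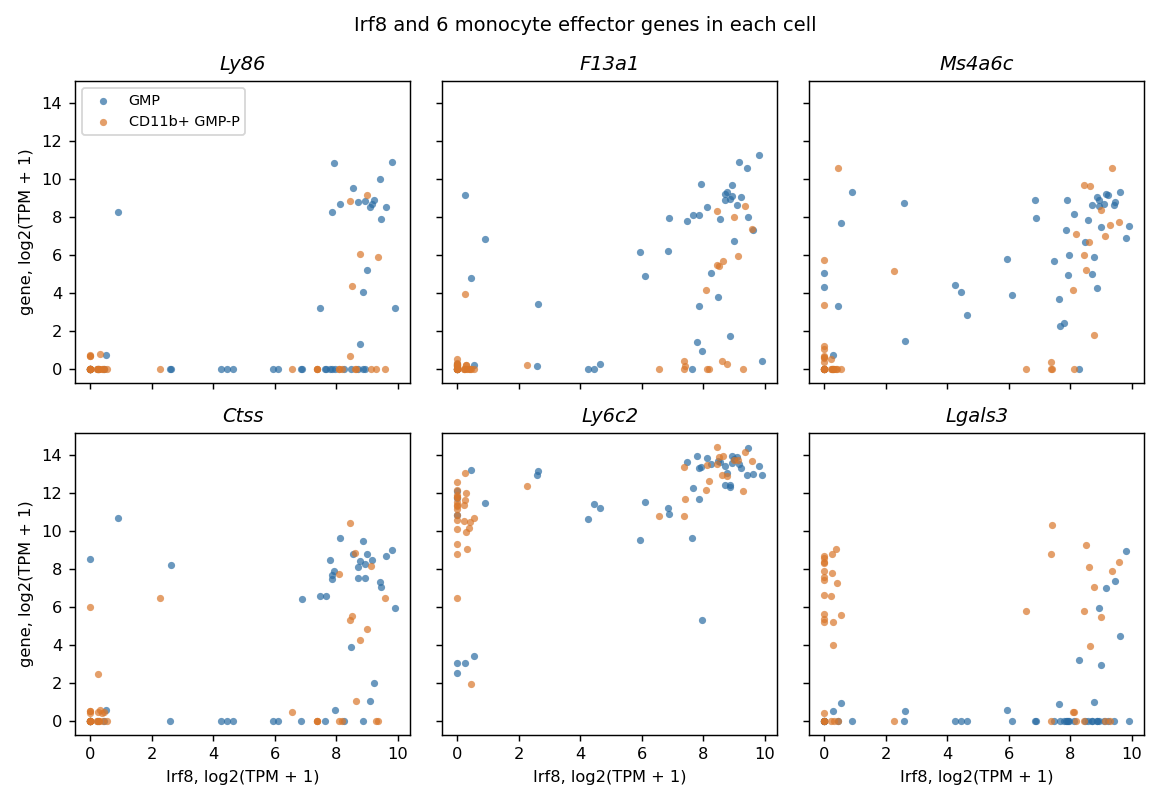
Levels of 6 members (y axis) plotted on the level of Irf8 (x axis), in log2(TPM + 1), 1 point per cell (blue, 46 GMP; orange, 45 CD11b+ GMP-P). Ly86 is present almost only at the right, where Irf8 is high, in 15 of its 16 GMP cells and all 5 of its CD11b+ GMP-P cells, whereas Lgals3 in CD11b+ GMP-P also lies at Irf8 near 0.

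The promoter-side sequences of the 5 members that followed Irf8 in GMP, and of Lgals3, which went the other way between populations, are shown because IRF8 and PU.1 act on short DNA motifs. Each is the 250 bases before a RefSeq transcription start in build GRCm38.p6, 5′ to 3′ on the gene's strand, and all 9 members had an entry. They lie at chr15:75111972-75112221 (minus strand) for Ly6c2, chr13:37049214-37049463 (minus) for F13a1, chr13:37345095-37345344 (plus) for Ly86, chr19:11469118-11469367 (plus) for Ms4a6c, chr3:95526536-95526785 (plus) for Ctss and chr14:47373610-47373859 (plus) for Lgals3. Capitals mark matches to any of 4 motifs.
Ly6c2: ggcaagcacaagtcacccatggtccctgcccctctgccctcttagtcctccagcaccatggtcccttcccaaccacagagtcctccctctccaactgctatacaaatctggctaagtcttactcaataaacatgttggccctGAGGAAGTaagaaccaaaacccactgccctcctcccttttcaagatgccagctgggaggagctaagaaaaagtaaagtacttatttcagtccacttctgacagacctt
F13a1: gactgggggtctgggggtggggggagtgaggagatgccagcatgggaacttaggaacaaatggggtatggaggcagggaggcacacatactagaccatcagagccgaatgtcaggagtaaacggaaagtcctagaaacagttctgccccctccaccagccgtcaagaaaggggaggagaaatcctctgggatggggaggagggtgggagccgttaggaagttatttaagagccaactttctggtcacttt
Ly86: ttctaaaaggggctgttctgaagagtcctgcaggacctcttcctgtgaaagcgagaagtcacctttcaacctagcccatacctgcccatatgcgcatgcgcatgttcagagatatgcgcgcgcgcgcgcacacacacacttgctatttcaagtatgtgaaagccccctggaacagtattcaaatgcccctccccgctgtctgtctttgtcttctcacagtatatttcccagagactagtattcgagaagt
Ms4a6c: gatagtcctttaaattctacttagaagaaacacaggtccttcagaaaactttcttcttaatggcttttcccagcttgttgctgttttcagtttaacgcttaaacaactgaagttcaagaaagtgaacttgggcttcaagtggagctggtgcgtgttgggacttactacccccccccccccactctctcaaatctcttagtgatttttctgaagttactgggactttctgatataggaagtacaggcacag
Ctss: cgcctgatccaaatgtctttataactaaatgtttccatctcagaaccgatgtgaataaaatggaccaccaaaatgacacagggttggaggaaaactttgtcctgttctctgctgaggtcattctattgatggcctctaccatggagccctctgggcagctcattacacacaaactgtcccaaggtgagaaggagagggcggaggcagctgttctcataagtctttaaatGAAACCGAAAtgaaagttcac
Lgals3: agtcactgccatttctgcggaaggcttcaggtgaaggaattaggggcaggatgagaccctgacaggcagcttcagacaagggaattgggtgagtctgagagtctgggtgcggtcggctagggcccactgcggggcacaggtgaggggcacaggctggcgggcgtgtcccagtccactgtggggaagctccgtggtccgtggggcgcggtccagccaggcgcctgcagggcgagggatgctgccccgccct

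The 4 motifs were searched on both strands. The first was the composite site of PU.1 with IRF4 or IRF8, written as GGAA, NN and GAAA in a row, and the second the core of the interferon-stimulated response element, GAAA, NN and GAAA in a row. The third was GAGGAAGT, a PU.1-type site, and the last TTGCNNAA, a C/EBP-type site. The first 3 can overlap each other. Only 2 of the 9 members held a match. Ctss held GAAACCGAAA, whose first base lies 21 bases before the start, and 2.98% of 32851 windows of the same length held that motif. Ly6c2 held GAGGAAGT, 108 bases before the start, a motif found in 2.44% of windows. The composite site occurs in 2.30% of windows and TTGCNNAA in 9.56%, and no member held either in this window. A match is only a description of letters, and more distant elements were not searched.

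The 5 members that followed Irf8 also went with each other in GMP. Their 10 pairs had a median rho of 0.53 (0.34 to 0.66), against 0.22 for all 36 pairs of members. Without the 6 marked cells these were 0.51 (0.21 to 0.71) and 0.21. The 16 cells with Ly86 were nested within the cells of other members: all 16 also held F13a1, Ms4a6c and Ly6c2, and 14 held Ctss. Over all 46 GMP cells, Ly6c2 was present in 42, Ms4a6c in 36, F13a1 in 29 and Ctss in 26. Such overlap was not limited to the 5 members. Tmem176b was also present in 14 of the 16 cells, and all 5 cells with Lgals3 held each of the 5 members. F13a1 and Ctss were present together in 21 cells, F13a1 alone in 8 and Ctss alone in 5. Outside this group, Mpeg1 was tied to Ctss (rho 0.56), and both of its GMP cells held Ctss. Tmem176a and Tmem176b had a rho of only 0.25 with each other, and pairs with Lgals3 had a median of 0.14.

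The genes with the most similar pattern were searched among the 4999 others detected in 50% or more of GMP cells (5000 for Ly86). For Irf8 the nearest were Cfp (properdin, a complement regulator, rho 0.65), Ly6c2 and F13a1. Pld4, a lysosomal nuclease, was the nearest gene to Ly86 (rho 0.73), to F13a1 (0.68) and to Ctss (0.65). Ly6c2 had its nearest neighbours in Ly6a (0.93) and Ly6c1 (0.92), and Ly6a, the gene for Sca-1, was present in 40 of 46 GMP cells although the sort was Sca-1-negative. Both genes share sequence with the far more abundant Ly6c2 (7.18% of its 31-base stretches for Ly6a, 48.2% for Ly6c1). The part of divided reads in these values was not tested. Ms4a6c lay nearest to H2afy (0.67), a gene for the histone variant macroH2A1, and to Ifitm3 (0.63).

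Relations to neutrophil genes in GMP differed between members. Because the 6 cells with basophil and mast cell markers moved these values, each is given over 46 cells and then over the 40 others. With Gfi1, Ly86 had a rho of -0.38 and then -0.46, and Ctss -0.42 and then -0.59. With S100a8, a calprotectin subunit of neutrophils, Ly86 had -0.40 and then -0.59. F13a1 had -0.35 and then -0.57 with it, Ctss -0.32 and then -0.57, and Ms4a6c -0.28 and then -0.50. Ly6c2 had 0.25 and then 0.009. With Elane, the gene for neutrophil elastase, F13a1 had -0.16 and then -0.41, and Ctss -0.10 and then -0.38. Ly86 had -0.22 and then -0.45, and Ms4a6c -0.08 and then -0.34. Ly6c2 had 0.45 with Elane but 0.23 without those cells, and 0.56 and then 0.47 with the granule protease gene Prtn3. At 10 TPM, 23 of 46 GMP cells held 5 or more members (50%, 34.9 to 65.1), 22 of these also held Irf8, and all 23 had Elane at 1000 TPM or more. That level of Elane was reached by 43 of the 46 GMP cells. Without the 6 marked cells, 23 of 40 cells held 5 or more members (57.5%, 40.9 to 73).

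In CD11b+ GMP-P, 5 members again had a rho with Irf8 of 0.4 or more, over 45 cells: Ly6c2 at 0.64, Ms4a6c at 0.55, F13a1 at 0.45, Ctss at 0.44 and Tmem176b at 0.42. There, however, 7.5% of 7228 genes reached 0.4, and Irf8 itself had a rho of 0.45 with the number of genes detected. Given that number, Ly6c2 (0.51) and Ms4a6c (0.41) remained at 0.4 or more, beside 1.23% of genes. Ly86 had 0.26, below the size used to call a correlation, but Pearson's r was 0.44, past it. All 5 cells with Ly86 held Irf8, and 13 of 18 cells with Irf8 lacked Ly86. With Pearson's r, Tmem176b was under 0.4, at 0.37. Lgals3 had -0.07. Irf8 was itself at 0 to 9.58 in this population with a median of 0.39, and had a rho of -0.68 with Camp, so these values span the split of cells by Camp described next. Whether rho differs between the populations was not tested, as each is 1 sample.

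**Figure D3:**
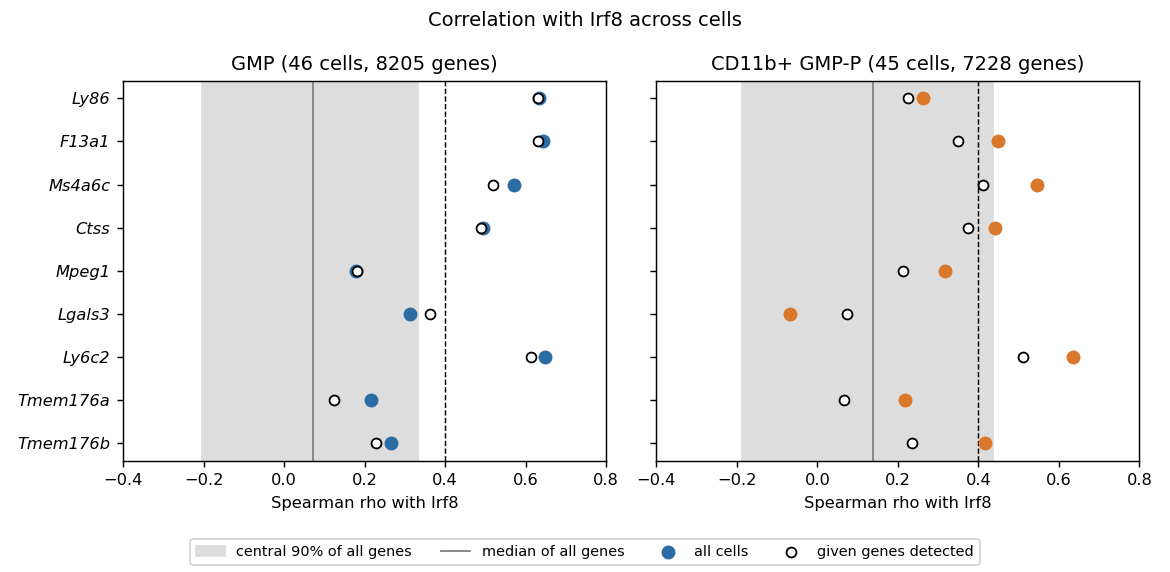
Spearman's rho of each member with Irf8 on the x axis, with GMP in the left panel (n = 46) and CD11b+ GMP-P in the right (n = 45), over all cells (filled) and given the number of genes detected (open), with a dashed line at 0.4. Gray bands span the central 90% of all genes, from -0.20 to 0.33 in GMP and from -0.19 to 0.44 in CD11b+ GMP-P, and gray lines mark their medians of 0.07 and 0.14.

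In CD11b+ GMP-P, most members were found in cells with little Camp. In 27 of 45 cells Camp, the gene for the cathelicidin peptide of late granules, was at 1000 TPM or more, a level that no GMP cell reached. In these 27 cells Ly86, F13a1, Ms4a6c, Ctss, Mpeg1 and Tmem176a were present in none, which allows a share of up to 12.8% (upper Clopper-Pearson bound), and Tmem176b in 1. The highest of these 27 cells stood at 0.78 for Ly86, 0.52 for F13a1 and 0.60 for Ctss. In the other 18 cells Ms4a6c was present in 15, Ctss in 11, F13a1 in 10, Tmem176b in 6, Ly86 in 5, Mpeg1 in 5 and Tmem176a in 4. At least 1 of these 7 members was thus present in 17 of the 18 cells and in 1 of the 27. The split by Camp, and the set of 7, were chosen after the values were seen.

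The 7 members were each present in 4 to 15 CD11b+ GMP-P cells, and all 7 were present in at most 1 cell with abundant Camp. So were 15.8% of the 4396 genes present in 4 to 15 cells, and 14.3% of the 4866 genes present in 4 to 18. Ly6c2 and Lgals3, left out of the set after the values were seen, were present in 27 and 21 of the cells with abundant Camp. The count of 7 is therefore no test beside these shares. Irf8 followed the same split less sharply, present in 14 of 18 and 4 of 27 cells, and Gfi1 in 12 and 11. The cells with abundant Camp had a median of 3767 genes above 0 against 4768, and their 50 highest genes held a median of 60.2% of TPM against 32.1%. TPM sums to a fixed total, so other transcripts are listed lower in such cells, and the part of this in the split was not tested. With a floor of 1 TPM, 6 of the 27 cells and 17 of the 18 held at least 1 of the 7 members.

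Lgals3 and Ly6c2 were the exceptions. Lgals3 was present in 21 of the 27 cells with abundant Camp (77.8%, 57.7 to 91.4) and in 9 of the other 18 (50%, 26 to 74), intervals that overlap. Ly6c2 was present in all 27 and in 17 of 18, at medians of 10.83 and 13.25. Across all 45 cells, Lgals3 had a rho of 0.33 with Camp and 0.32 with S100a8, whereas Ms4a6c had -0.70 and -0.72. The genes nearest to Lgals3 in CD11b+ GMP-P were Gpsm3 (rho 0.61) and Lyz2, lysozyme (0.59).

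**Figure D4:**
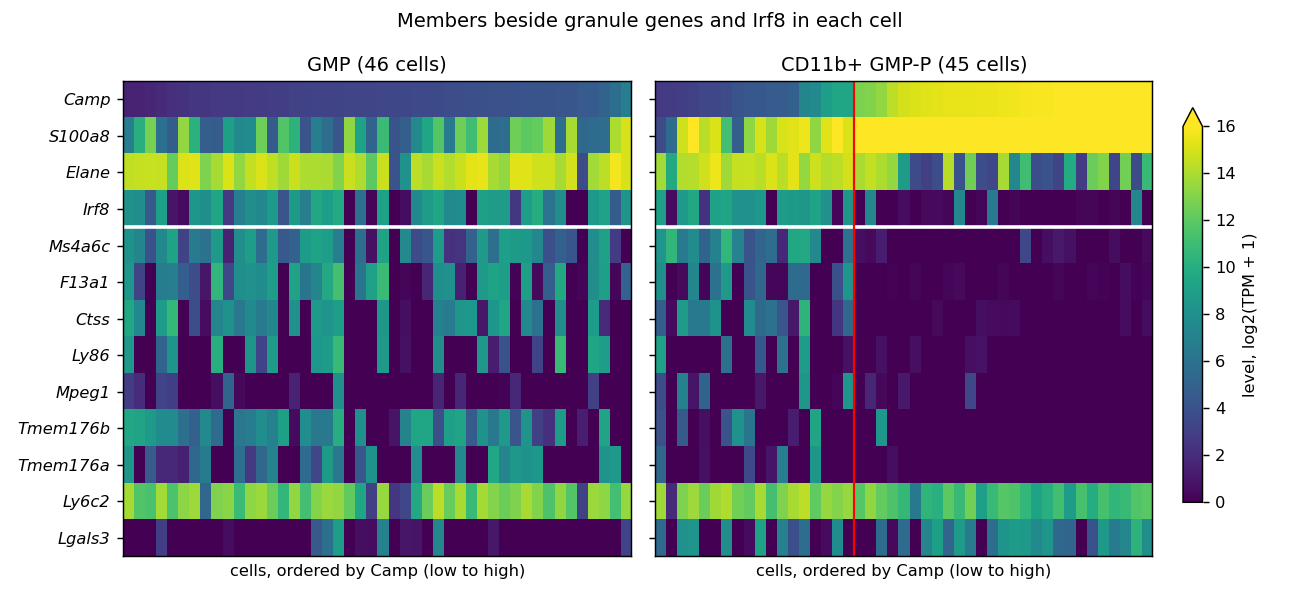
Levels of Camp, S100a8, Elane and Irf8 (above the white line) and of the 9 members (below it) in each cell, as colour on a scale of log2(TPM + 1), ordered by Camp within each population (left, 46 GMP; right, 45 CD11b+ GMP-P). The red line separates 18 cells with Camp under 1000 TPM from 27 above it, where 6 members are under 10 TPM in every cell, Tmem176b is above it in 1 cell, Ly6c2 in all 27 and Lgals3 in 21.

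In the 18 CD11b+ GMP-P cells with less Camp, several members stood at GMP levels. Against all GMP cells, the difference of Ms4a6c was +0.44 and that of Ctss -0.22, both within 1, and Ly6c2 was at +0.94. F13a1 at -1.76, Ly86 at -1.19, Tmem176a at -2.09 and Tmem176b at -3.46 were still lower, and Mpeg1 at +1.18 and Lgals3 at +2.63 were higher. By this measure 4 of 9 members were lower and 2 higher by 1 or more, beside 13.1% and 3.69% of the 10030 genes. The median over the members was -0.22, and that over those genes -0.19. Within these 18 cells rho with Irf8 was 0.51 for F13a1, 0.51 for Ly6c2, 0.45 for Ms4a6c, 0.37 for Lgals3 and 0.33 for Ly86, but -0.0633 for Ctss. With so few cells these are descriptions only.

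A cell's count of members draws on these same values. GMP cells held a median of 4.5 of the 9 members (0 to 9) and CD11b+ GMP-P cells 2 (1 to 9). In CD11b+ GMP-P, 9 of 45 cells held 5 or more (20%, 9.58 to 34.6), and all 9 also held Irf8. All 9 had Elane at 1000 TPM or more, as did 29 of the 45 cells. None had Camp at that level, which the counts by Camp above already fixed, so it is no separate result. When only cells with a number of genes found in both populations were kept, the share with 5 or more was 33.3%, against 46.2% in GMP. With members counted above 0 in all cells, it was also 33.3%, against 76.1% in GMP. The count went with Irf8 in both populations (rho 0.70 for GMP, 0.60 for CD11b+ GMP-P) and also with the number of genes detected (0.44 and 0.58).

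Of 36 other monocyte genes, 29 were detected in 10% or more of either population's cells. Of these, 8 were lower in CD11b+ GMP-P, 2 higher and 19 within 1, beside 29.9% lower and 2.45% higher among all genes. Their median was -0.53, close to the -0.50 of all genes. The lower ones included Ccl9, a chemokine, at -3.59, Tifab at -3.02, Ccr2, the receptor that draws monocytes from marrow, at -2.93, and Ctsc, cathepsin C, at -2.51. The lysozyme genes Lyz1 and Lyz2, which neutrophils also express, were higher, Lyz1 by +4.15 and Lyz2 from a mean of 6.80 to 11.21. In GMP, 8 of 24 genes of this list reached a rho of 0.4 with Irf8, against 1.85% of all genes, among them Pld4 (0.61) and Ccr2 (0.51). In CD11b+ GMP-P, 9 of 23 genes of this list reached 0.4, beside 7.5% of all genes, and their median rho was 0.31. These values do not allow for the number of genes detected. Lyz2 had a rho with Irf8 of 0.48 in GMP. In CD11b+ GMP-P it was -0.32, or -0.0056 given the number of genes detected.

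Of 27 relatives and partners of the members, 18 passed the same filter, 10 of them lower in CD11b+ GMP-P, none higher and 8 within 1, beside 29.9% lower and 2.45% higher among all genes. Ly6e, a relative of Ly6c2, was at -4.19, the cathepsins Ctsz and Ctsa at -3.24 and -3.17, and the galectin-3 binding protein gene Lgals3bp at -2.89. In GMP, 1 of 15 reached a rho of 0.4 with Irf8, beside 1.85% of all genes. It was Ly6a at 0.58, which shares sequence with Ly6c2, so its reads may not be its own alone. In CD11b+ GMP-P, 4 of 14 did, beside 7.5%.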

How the data were processed

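The authors deposited 1 table of log2(TPM + 1) values, which per the submitters' processing notes was made with RSEM on the mouse build mm9. For the aligner and the annotation, neither is given in the sources used here. Returned to a linear scale, each cell summed to between 999999 and 1000080, so depth is unknown, and 80.3% of values were 0. Per the labels' protocols, cells were captured on a Fluidigm C1 chip and made into SMARTer and Nextera XT libraries, which carry no molecular identifiers and no strand.

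Populations were taken from the sample titles. Levels, differences of means, shares of cells with exact Clopper-Pearson intervals (95%, counting error only) and Spearman correlations within each population were computed with Python 3.11.15, numpy 2.4.6, pandas 2.3.3 and scipy 1.17.1, with a pseudocount of 1, and checked on simulated data. Partial correlations used residuals of ranks. No doublet caller was run. The members and lists were chosen with earlier results of these data known. Named genes were the members, Irf8, Gfi1, granule genes, up to 4 list genes with the largest differences each way, and the 3 nearest genes by rho. Itgam, Kit, Cd180, Cd74, Pld4 and the Lyz2 correlations were named after their values were seen where this rule does not cover them. Promoter windows were RefSeq's (GRCm38.p6), and where a gene had several, the start nearest to that of the best supported principal GENCODE M21 transcript was used. As the builds differ, no coordinate was joined to the table.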

Additional observations from a re-analysis of the deposited data

How the results depend on the processing

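No paired analysis was possible because the labels name no mice. Settings added after the values were seen were the splits by Camp and by basophil and mast cell markers. Of the 9 members, 4 to 7 were lower by 1 or more in the settings run, and 1 was higher, except that 2 were with the log2 ratio of mean TPM, with scaling by median of ratios and with Camp under 1000 TPM. Over the same settings 12.6% (pseudocount of 10) to 45.6% (pseudocount of 0.1) of all genes were lower. With Camp under 1000 TPM the median difference moved from -2.74 to -0.22 and Ms4a6c turned to +0.44. Without a filter 12.5% of all genes were lower by 1 or more, and 51.8% with a filter of 50%. In GMP, the 5 members at a rho of 0.4 or more with Irf8 stayed at 5 to 6 in every setting. In CD11b+ GMP-P the count went from 5 to 2 given the number of genes detected, and to 3 with scaling by median of ratios and with Camp under 1000 TPM, where Ctss turned to -0.0633. The median rho there, 0.42, was 0.23 given genes detected, 0.40 in cells with Irf8 above 0, 0.37 without the 2 cells farthest in Irf8, 0.30 in the shared range of genes detected, 0.32 with median of ratios and 0.33 with Camp under 1000 TPM. Cells with 5 or more members were 50% of GMP cells at 10 TPM, 76.1% above 0 and 67.4% at 1 TPM, and 20% of CD11b+ GMP-P cells at 10 TPM but 2.22% at 100 TPM, where GMP had 37%. Cells with abundant Camp that held any of 7 members were 3.7% of 27, but 15.6% of 32 with Camp at 100 TPM and 22.2% with members at 1 TPM. For the other cells the share of 94.4% was 100% with Camp at 100 TPM and 72.2% with members at 100 TPM. Depth is unknown, so an absent transcript may have been missed.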
